A study of Arabidopsis thaliana with 74 samples.

Results

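The expression of 7 genes of small RNA silencing was followed in rosettes of Arabidopsis thaliana epiRILs, epiHybrids and msCol plants. These genes were DCL1 (AT1G01040), HYL1 (AT1G09700), SE (AT2G27100), AGO1 (AT1G48410), AGO2 (AT1G31280), DCL2 (AT3G03300) and RDR6 (AT3G49500), chosen by locus from the 32833 genes listed, and all 7 were among the 19383 genes kept for testing. An epiRIL is an inbred Columbia line with stretches of DNA that lost methylation in a ddm1-2 mutant ancestor. An epiHybrid is the F1 of an epiRIL father and an msCol mother, a male-sterile Columbia plant whose ms1 mutation lies in a segment of the accession Landsberg (Ler) on chromosome 5. There were 74 libraries, 1 per line, from 36 epiHybrids, their 36 epiRIL fathers, msCol line 12 and msCol line 16, each made from rosettes of 3 cultivation experiments pooled at 27 days after sowing. Plants of a line were therefore not measured separately, and lines served as replicates. The study had picked the 36 families for high, low or no heterosis in leaf area, so they are no random sample of the population.

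Dicer-like enzymes cut double-stranded RNA into small RNAs, and Argonaute proteins carry those small RNAs to matching transcripts, which are then cleaved or kept from translation. DCL1 releases microRNAs (miRNAs) from their folded precursors, with the double-stranded RNA-binding protein HYL1 and the zinc-finger protein SE as its partners. AGO1 carries most of these miRNAs. RDR6 copies cleaved transcripts into double strands, DCL2 produces siRNAs from such strands and from viruses, and AGO2 acts in antiviral defence. The pathway also acts on itself in Arabidopsis: the DCL1, AGO1 and AGO2 transcripts are targets of miR162, miR168 and miR403.

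These miRNAs and their sites are shown because they place 3 of the 7 genes under the pathway they serve. All were read from the TAIR10.1 genome and its RefSeq annotation, and in the miRNAs the capitals mark the seed (bases 2 to 8).
ath-miR162a-3p: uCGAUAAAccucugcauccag
ath-miR168a-5p: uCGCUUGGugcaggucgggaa
ath-miR403-3p: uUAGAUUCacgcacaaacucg
ath-miR838: uUUUCUUCuacuucuugcaca
The last of them lies in an intron of DCL1 itself (chr1:28635-28655, plus strand). In the sites, written 5′ to 3′ along the transcript, the capitals mark the bases opposite the seed.
DCL1 site of miR162: ctggatgcagaggTATTATCGa
AGO1 site of miR168: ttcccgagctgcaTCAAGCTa
AGO2 site of miR403: ggagtttgtgcgtGAATCTAa
AGO3 site of miR403: ggatgtttgtgcgtGAATCTAa
The DCL1 site lies in the coding sequence and crosses an exon junction (chr1:27522-27627, plus strand), with 0 mismatches and 1 unpaired base. The AGO1 site is coding as well (chr1:17891529-17891549, minus strand) and has 2 mismatches and 1 G:U pair. The AGO2 site (chr1:11185223-11185243, plus strand) and the AGO3 site (chr1:11192398-11192419, plus strand) lie in 3′ UTRs with 1 mismatch each, and the AGO3 site has 1 unpaired base. These matches describe the sequences only, as cleavage was not measured.

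All libraries were of similar depth, with 38130406 to 42206920 counts (median 40.8 M), so that 1 count corresponded to 0.0245 CPM (the count scaled to a common library total). The rosette label held: the summed level of 3 leaf markers was at least 26885 CPM in every library, while root markers summed to at most 0.351 CPM and seed markers to at most 0.170 CPM. Flower and pollen markers summed to 4.08 to 25.2 CPM, and meristem and dividing cell markers to 15.05 to 39.5 CPM. The epiHybrid library of family 340 stood apart with the lowest TMM factor (0.756) and the highest leaf marker sum (111583 CPM, followed by 63357 CPM in the epiHybrid of 310). Libraries also differed in how long transcripts were represented. This was measured as the length slope, the change of a library's log2(CPM + 1) deviations from the mean of all libraries per doubling of exon length, with the 7 genes left out. It ranged from -0.359 (310) to 0.197 (368) in epiHybrids with a median of 0.0360, and from -0.324 (454) to 0.134 (176) in epiRILs with a median of 0.0238, and was 0.0592 and 0.0937 in msCol. In a library with a negative slope, long genes were low.

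Per kb of exon, AGO1 had the highest level of the 7 genes. It reached 41.1 CPM per kb in epiRILs, 39.7 in epiHybrids and 38.0 in msCol, above SE with 14.65, 14.98 and 16.00 CPM per kb. HYL1 had 7.003, 7.09 and 7.24 CPM per kb, and RDR6 had 7.08, 6.62 and 6.47 CPM per kb. AGO2, DCL2 and DCL1 were lowest in epiRILs with 5.92, 5.36 and 5.21 CPM per kb. From HYL1 to DCL1 neighbours in this order lay within the spread between lines, and in msCol DCL1 (7.42 CPM per kb) came before HYL1.

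**Figure D1:**
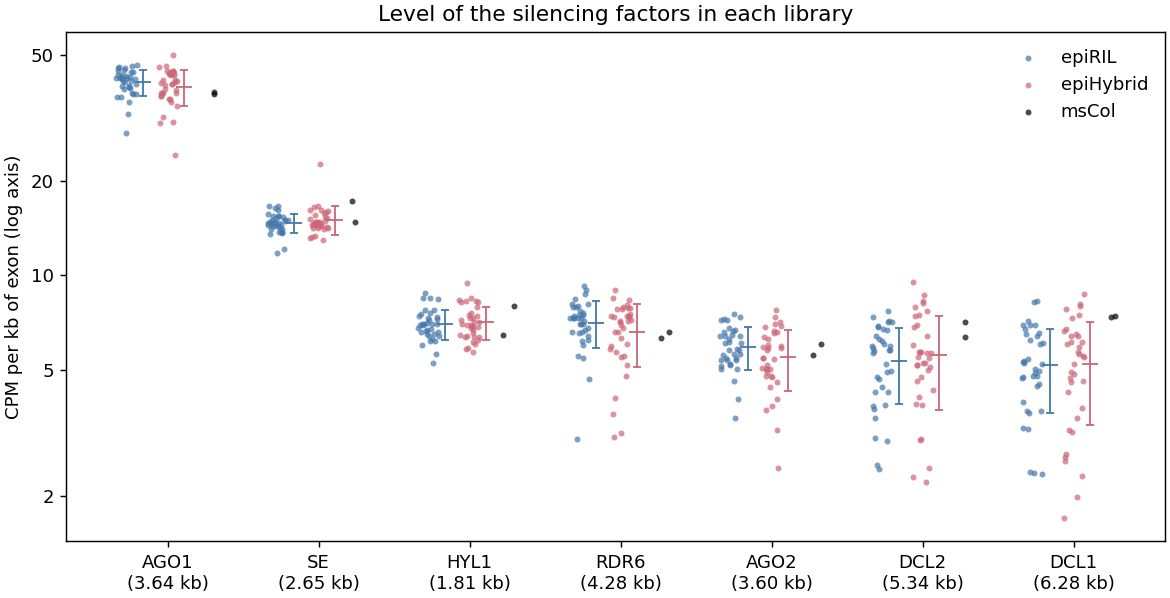
Level of each gene in CPM per kb of exon (log axis) in every library of epiRILs, epiHybrids and msCol, with the mean and SD of the 36 lines beside the points; the exon length is given under each gene. AGO1 lies above all others, and the points of DCL1 and DCL2 are the most widely scattered.

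DCL1 (TAIR10.1 chromosome 1, 23121 to 31227, plus strand, 6.279 kb of exon) varied most among lines. Its level in epiRILs was lowest at 14.7 CPM (568), had a median of 32.2 CPM and was highest at 52.0 CPM (158). In epiHybrids it lay between 10.7 CPM (310) and 54.8 CPM (176) around a median of 34.6 CPM, and msCol 12 and 16 had 46.8 and 46.3 CPM. The ranges of both kinds of line overlapped and were wide, 3.54-fold in epiRILs and 5.14-fold in epiHybrids. Below both msCol libraries lay 34 of 36 epiRILs and 31 of 36 epiHybrids. How many of all genes had as many lines on 1 side of both msCol libraries was not counted. DCL1 was not called against msCol in either kind of line. The SD of its log2 values exceeded that of 93.3% of tested genes in epiRILs and 95.2% in epiHybrids. The gene overlaps AT1G03993, MIR838 and PPa1, with which it may share reads.

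Its partners in miRNA production were steady. HYL1 (chromosome 1, 3137649 to 3140353, minus strand, 1.806 kb, overlapping AT1G09690) had 9.53 CPM (454) at the lowest, a median of 12.6 CPM and 15.9 CPM (462) at the highest in epiRILs. In epiHybrids HYL1 ran from 10.3 CPM (176) over a median of 12.5 CPM to 17.0 CPM (424), with 14.5 and 11.7 CPM in msCol 12 and 16. The ranges of all groups overlapped. SE (chromosome 2, 11572397 to 11576658, plus strand, 2.654 kb) had a lowest value of 31.3 CPM (454), a median of 39.0 CPM and a highest value of 44.2 CPM (519) in epiRILs. In epiHybrids SE had 34.5 CPM (454), 38.8 CPM and 59.8 CPM (368), against 45.7 and 39.3 CPM in msCol. The epiHybrid of 368, whose length slope was the highest of all, was alone in exceeding both msCol libraries. SE varied less than nearly all genes: its log2 SD exceeded that of 4.85% of genes in epiRILs and 4.13% in epiHybrids, and that of HYL1 exceeded 24.3% and 10.5%.

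AGO1, the main carrier of miRNAs (chromosome 1, 17885633 to 17892632, minus strand, 3.64 kb), had 103 CPM (454) at the lowest, a median of 153 CPM and 169.7 CPM (389) at the highest in epiRILs. In epiHybrids AGO1 ran from 87.7 CPM (340) over 147 CPM to 182 CPM (176), and msCol 12 and 16 had 137 and 139 CPM. The msCol values lay inside both ranges, with 28 of 36 epiRILs and 22 of 36 epiHybrids above them. The share of all genes with such counts was not determined. AGO2 (chromosome 1, 11181504 to 11185396, plus strand, 3.602 kb) had 12.7 CPM (454), a median of 20.98 CPM and 27.1 CPM (12) in epiRILs. In epiHybrids AGO2 reached from 8.84 CPM (340) over 19.7 CPM to 27.9 CPM (176), and msCol had 21.8 and 20.2 CPM. Both Argonaute genes were thus lowest in the library of epiRIL 454 among fathers and of epiHybrid 340 among hybrids.

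DCL2 (chromosome 3, 767880 to 776214, minus strand, 5.338 kb, overlapping AT3G03305) had 13.0 CPM (539) at the lowest, a median of 30.9 CPM and 41.1 CPM (176) at the highest in epiRILs. In epiHybrids DCL2 ran from 11.8 CPM (310) over 29.3 CPM to 51.0 CPM (426), with 34.1 and 38.0 CPM in msCol. It spread nearly as widely as DCL1, with a log2 SD above that of 91.8% of genes in epiRILs and 92.3% in epiHybrids. RDR6 (chromosome 3, 18348974 to 18353673, minus strand, 4.278 kb) had 12.9 CPM (454), a median of 31.3 CPM and 39.5 CPM (389) in epiRILs. In epiHybrids RDR6 had 13.1 CPM (340), 30.6 CPM and 38.4 CPM (176), and in msCol 28.4 and 27.0 CPM. Of the lines, 25 epiRILs and 21 epiHybrids exceeded both msCol libraries in RDR6, whereas 26 epiRILs and 25 epiHybrids lay below both in DCL2. These counts, too, have no share of all genes beside them, as it was not determined.

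The level of the 5 genes with more than 3 kb of exon rose with the length slope of the library, and that of SE and HYL1 was not shown to. For DCL1 the correlation over lines reached r = 0.953 in epiRILs (rho = 0.930, r = 0.947 without the 2 lines farthest from the median slope) and r = 0.977 in epiHybrids (rho = 0.967, r = 0.968). The permutation p was 1e-05 for each r and rho, the smallest that 100000 shuffles give (two-sided, adjusted p of r 5.27e-05 and 4.48e-05, Benjamini-Hochberg over 19383 genes, n = 36). Both values were read from the same libraries, so the relation describes those libraries. The fitted change of DCL1 was 3.80 log2 units per unit of slope in epiRILs and 3.81 in epiHybrids, that of SE 0.22 and 0.20.

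Among the siRNA factors DCL2 had r = 0.910 in epiRILs and 0.941 in epiHybrids (rho = 0.871 and 0.928, r = 0.904 and 0.916 without the 2 farthest lines). RDR6 had r = 0.879 and 0.897 (rho = 0.850 and 0.828, r = 0.814 and 0.857). AGO2 followed with r = 0.799 and 0.732 (rho = 0.707 and 0.690, r = 0.644 and 0.611) and AGO1 with r = 0.713 and 0.655 (rho = 0.770 and 0.622, r = 0.603 and 0.503). All of these passed the threshold by the same permutation test, the highest adjusted p of r being 0.000116 (AGO1 in epiHybrids). SE had r = 0.247 and 0.234 (rho = 0.155 and 0.170, adjusted p of r 0.214 and 0.239, permutation test, two-sided) and HYL1 r = 0.209 and 0.248 (rho = 0.0221 and 0.109, adjusted p of r 0.306 and 0.205). Without the 2 farthest lines r was 0.0813 and 0.319 for SE, and -0.170 and 0.229 for HYL1.

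The count of 5 of 7 in each group stood beside 51.9% of all tested genes in epiRILs and 55.6% in epiHybrids, so a relation of some sign with the slope was common. Its sign and size followed the length of the gene. The median r of the 306 genes of at least 5 kb was 0.932 in epiRILs and 0.940 in epiHybrids, and that of the 1570 genes of 3 to 4 kb was 0.726 and 0.738. Genes of 2 to 3 kb, the class of SE, had a median of 0.240 and 0.244, and genes of 1 to 2 kb, the class of HYL1, had -0.228 and -0.259. HYL1 thus lay above the median of its class, and SE close to that of its own in both groups. The slope shared 90.9% of the variance of DCL1 in epiRILs and 95.5% in epiHybrids, but 6.11% and 5.49% of that of SE. After its removal the SD of DCL1 over lines fell from 0.459 to 0.139 log2 units in epiRILs and from 0.586 to 0.124 in epiHybrids. The labels give no batch or measure of RNA integrity, so a state of the RNA and a change of DCL1 in the plants cannot be told apart in these libraries.

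**Figure D2:**
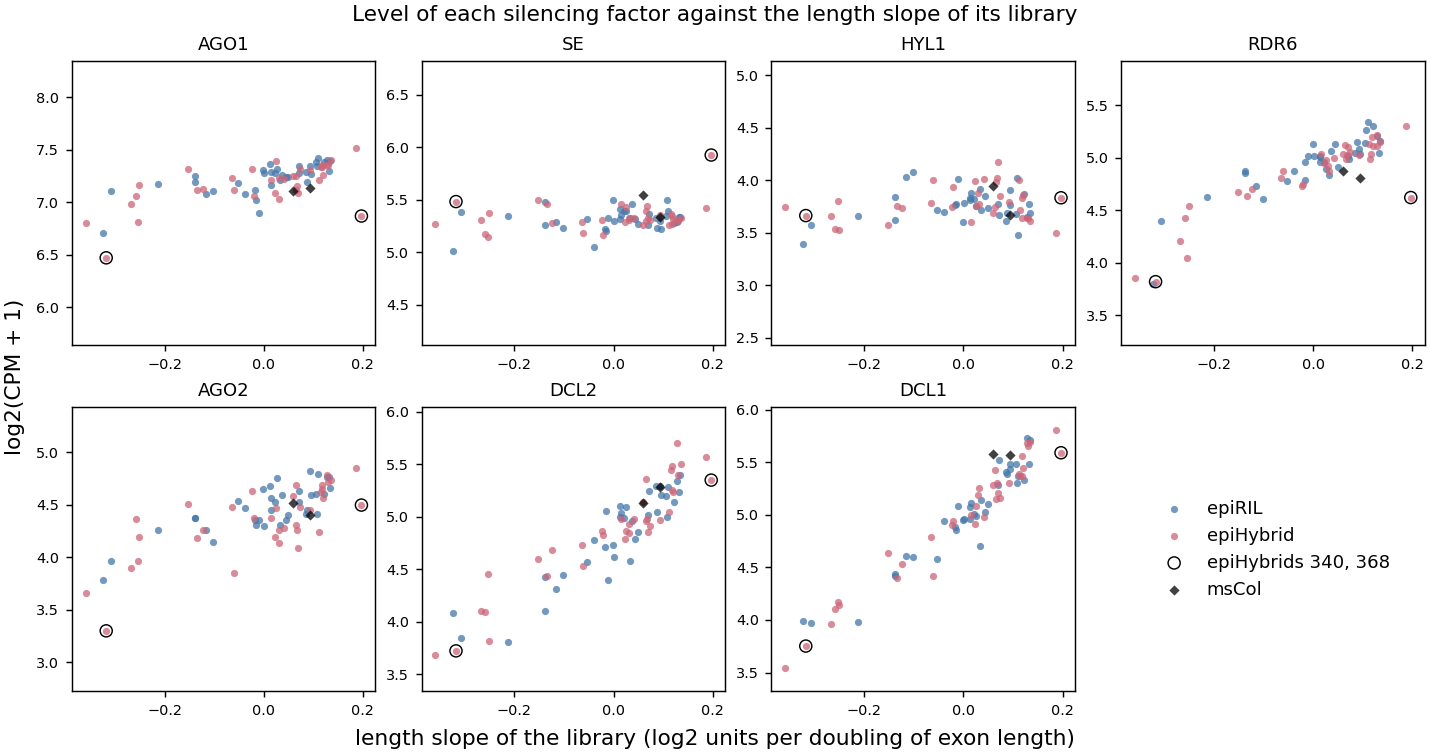
log2(CPM + 1) of each gene against the length slope of the library, for epiRILs, epiHybrids and msCol; every panel spans the same height in log2 units, and the epiHybrids of families 340 and 368 are circled. DCL1, DCL2 and RDR6 climb along the slope, while SE and HYL1 stay level.

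The lines that were low in DCL1 were thus those with the lowest slopes. In epiRILs 568, 539 and 454, DCL1 had 14.7, 14.8 and 14.9 CPM at slopes of -0.308, -0.213 and -0.324. In epiHybrids 310 and 340 it had 10.7 and 12.5 CPM at -0.359 and -0.318. At the other end, epiRILs 158 and 176 reached 52.0 and 51.6 CPM at 0.128 and 0.134. Family 539 changed from the lowest to the middle of the range: its father had 14.8 CPM of DCL1 and 13.0 CPM of DCL2, its epiHybrid 34.5 and 30.2 CPM, and the slope went from -0.213 to 0.065.

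The wider lists of the pathway, some of which include genes of the 7, are read beside the same 51.9% and 55.6% of all genes. All 7 genes of the DCL and RDR families correlated positively with the slope in both groups, with a median r of 0.932 in epiRILs and 0.940 in epiHybrids. DCL1, DCL2 and RDR6 are among them. Of other genes of at least 5 kb, 99.0% had a positive r in each group, called or not. Of those of 3 to 4 kb it was 93.0% in epiRILs and 93.5% in epiHybrids, so a positive r was shared by nearly all long genes. Of 21 genes of miRNA biogenesis, 14 were correlated in epiRILs, all positively, and 14 in epiHybrids, 13 positively and 1 negatively, shares near that of all genes. The precursors of trans-acting siRNAs (TAS), which are noncoding transcripts cut by miRNAs and copied by RDR6, went the other way. In epiRILs 3 of 5 were correlated, again near the share of all genes, and in epiHybrids 5 of 5, all with negative r. A negative r was common among short genes, and TAS1B (chromosome 1, 18549204 to 18550042) is shorter than 1 kb. Of other genes under 1 kb, 12.9% had a positive r in epiRILs and 13.4% in epiHybrids. Of those of 1 to 2 kb it was 29.1% and 28.1%. In epiRILs TAS1C had the lowest value (r = -0.596, rho = -0.555, adjusted p of r 0.000500, permutation test, two-sided).

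The design first asked whether epiHybrids differ from their fathers. None of the 7 genes was called between epiHybrids and epiRILs by the edgeR quasi-likelihood test with family as a block, where 1.31% of all genes were (adjusted p under 0.05), and none had an unadjusted p under 0.05 or was called by DESeq2. The largest differences were those of AGO2, which stood at -0.12 ± 0.06 on the log2 scale (adjusted p = 0.519; ± gives the standard error of a log2 fold change here and in later comparisons), and of RDR6, which stood at -0.11 ± 0.06 (adjusted p = 0.516). DCL1 had -0.03 ± 0.09 and was higher than the father in 18 of 36 families and lower in 18. On average epiHybrids had a DCL1 level of 32.8 ± 11.8 CPM, and their fathers had 32.7 ± 9.73 CPM (SD over 36 lines). As rosettes are mixtures, fewer cells of a type and less RNA per cell cannot be told apart in any of these values.

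The second comparison set the parents against each other. Between epiRILs and msCol 2.75% of genes were called by edgeR, but 0 of the 7 genes, with 0 at an unadjusted p under 0.05 and 0 by DESeq2. DCL1 had a log2 difference of -0.51 ± 0.35 (adjusted p = 0.539) and DCL2 of -0.33 ± 0.32 (adjusted p = 0.696), and neither passed the test. The log2 values of DCL1 had an SD of 0.459 over epiRILs, and those of DCL2 one of 0.428. With the length slope as a covariate the difference of DCL1 was -0.29 ± 0.10 (adjusted p = 0.0629). SE had -0.13, HYL1 -0.05, AGO2 0.02, AGO1 0.11 and RDR6 0.13 on the log2 scale, with adjusted p between 0.564 and 0.979.

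epiHybrids were then compared with msCol and with the mid-parent, the mean of both parents on the log2 scale. These comparisons share the msCol libraries with the former. Against msCol 1.83% of genes were called and against the mid-parent 0.743%, with 0 of the 7 genes in either, 0 at an unadjusted p under 0.05 and 0 by DESeq2. DCL1 stood at -0.51 ± 0.35 against msCol (edgeR, adjusted p = 0.568) and at -0.25 ± 0.19 against the mid-parent (adjusted p = 0.660). DCL2 had -0.27 ± 0.32 and -0.11 ± 0.18, and the log2 fold changes of the other 5 genes lay between -0.10 and 0.06 in both.

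The study's measure of non-additive expression, the percent divergence of the epiHybrid from the arithmetic mid-parent on the CPM scale, was described per family. Its median was -14.8% for DCL1 and -14.3% for DCL2, -4.74% for AGO2, -4.64% for SE, -1.98% for HYL1, -0.254% for RDR6 and 1.01% for AGO1. Families differed far more than these medians: DCL1 ranged from -70.2% (310) to 40.8% (41). The DCL1 level of the epiHybrid lay below both parents in 17 families, between them in 15 and above both in 4. The mother's value is the mean of both msCol libraries in every family, so the families are not independent here and no test was made.

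**Figure D3:**
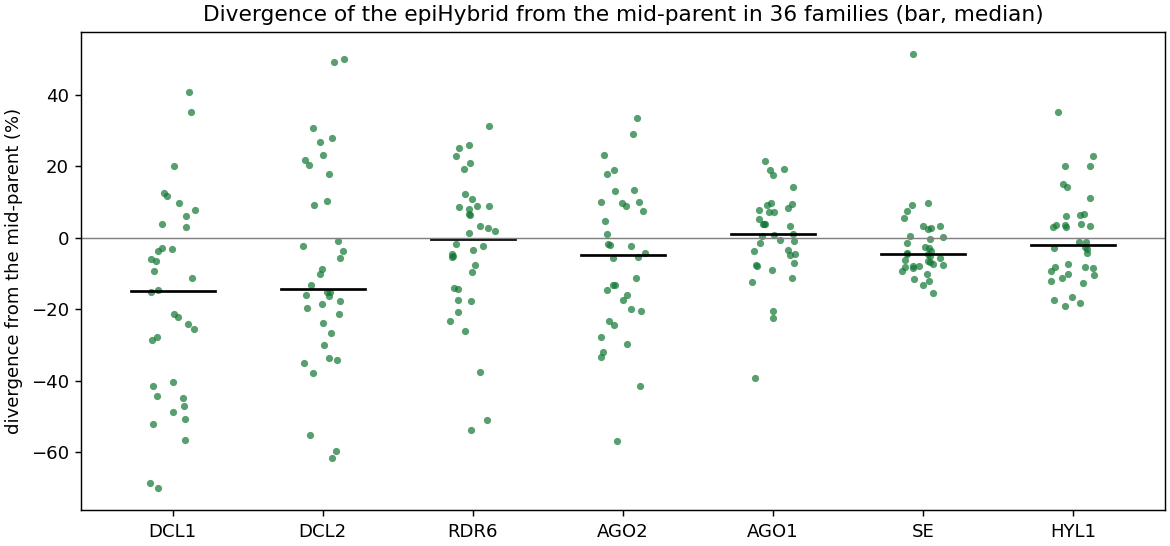
Percent divergence of the epiHybrid from the mid-parent in each of 36 families, with the median as a bar. The medians of DCL1 and DCL2 lie below 0 at -14.8% and -14.3%, and the families of these genes scatter to both sides.

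Whether a family keeps its level was examined through the correlation of fathers and epiHybrids. By a two-sided permutation test (100000 shuffles of the pairing) 7.02% of all genes were correlated, and 0 of the 7 genes were, though 3 had an unadjusted p under 0.05. RDR6 had r = 0.484 (rho = 0.387, adjusted p = 0.0612 and 0.128, n = 36 families), DCL1 r = 0.458 (rho = 0.367, adjusted p = 0.0576 and 0.143) and DCL2 r = 0.450 (rho = 0.416, adjusted p = 0.0614 and 0.105). Without the 2 farthest fathers r was 0.277 for RDR6, 0.468 for DCL1 and 0.456 for DCL2. epiRIL 454 was separated from the other fathers in RDR6 by 0.388 of the range, so the value of that gene rests partly on 1 family. AGO1 had r = 0.319, AGO2 0.217, HYL1 0.160 and SE 0.00645, with adjusted p of 0.152 to 0.977.

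The length slopes of father and epiHybrid were themselves correlated (r = 0.411, permutation p = 0.0121, rho = 0.271, permutation p = 0.112, n = 36), with r = 0.201 without the 2 farthest fathers. When values were replaced by their residuals on the slope, DCL2 had r = 0.495 (adjusted p = 0.0357) and DCL1 r = 0.175, against 7.63% of all genes called. Without families 340 and 368, DCL1 (r = 0.489, adjusted p = 0.0374), DCL2 (r = 0.478, adjusted p = 0.0413) and RDR6 (r = 0.550, adjusted p = 0.0360) were called, against 14.3% of all genes. A one-sided test for positive r, chosen after the data were seen, also called these 3 genes, against 18.5% of all genes. A correlation of father and epiHybrid in the Dicer-like genes thus hinged on the setting.

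**Figure D4:**
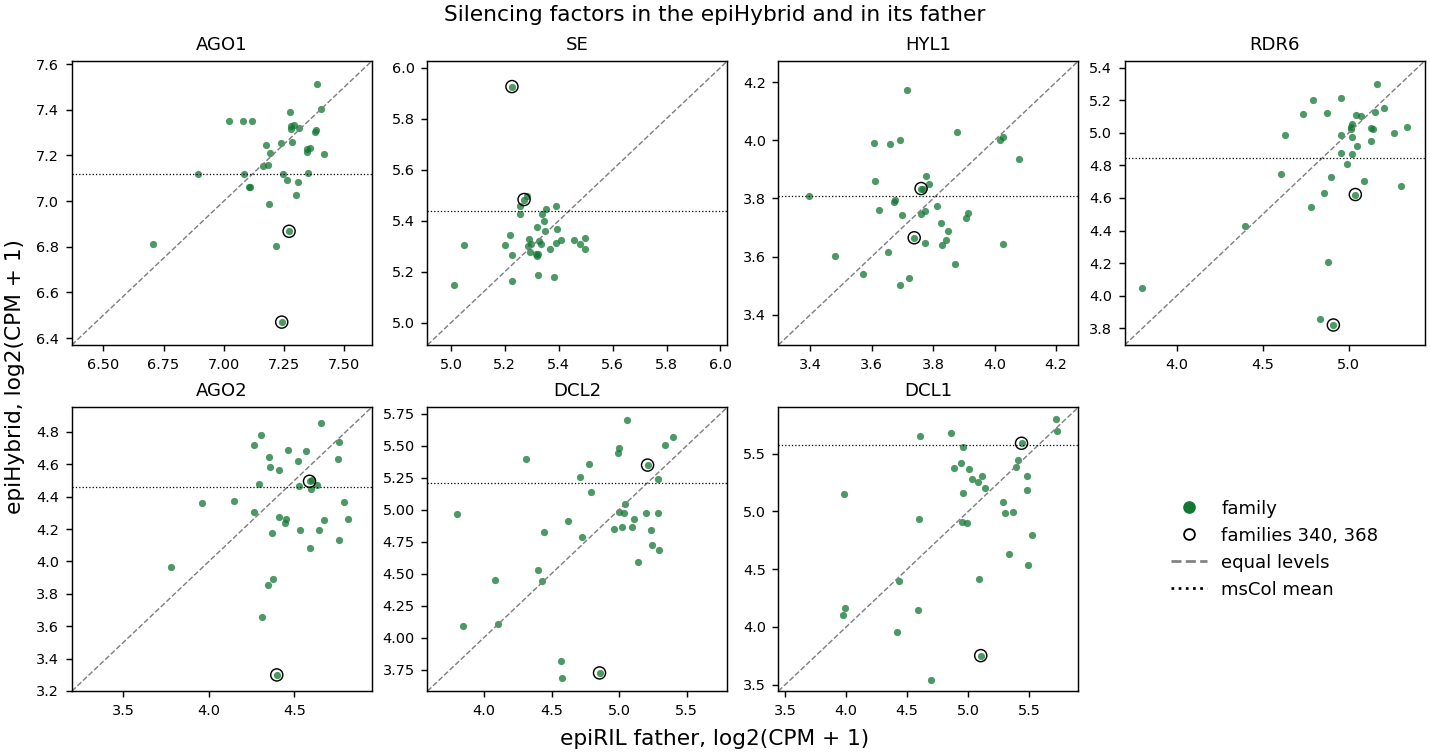
log2(CPM + 1) of each gene in the epiHybrid against its epiRIL father in 36 families; the dashed line marks equal levels, the dotted line the msCol mean, and families 340 and 368 are circled. The r of DCL1, DCL2 and RDR6 is 0.458, 0.450 and 0.484 and that of SE 0.00645, and none of the 7 genes passed the test on this scale.

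The 7 genes fell into a group of 5 that varied together and a pair that did not. Over epiRILs all 10 pairs among DCL1, DCL2, RDR6, AGO2 and AGO1 were correlated, with r from 0.648 to 0.932 (median 0.778), and over epiHybrids all 10 again, with r from 0.683 to 0.963 (median 0.825). The highest were those of DCL1 and DCL2 (r = 0.932 and 0.963, rho = 0.898 and 0.957, permutation p = 1e-05 for each r, two-sided, larger adjusted p 5.91e-05 and 4.58e-05), the enzymes of the miRNA and of a siRNA branch. None of the 11 pairs with SE or HYL1 passed in either group over all 36 lines. Without families 340 and 368, AGO2 with HYL1 passed in epiHybrids (r = -0.416, adjusted p = 0.0364, against -0.275 over all), and AGO1 with SE had r = 0.475 (adjusted p = 0.570) in place of -0.0986. Such correlations were frequent: 50.7% of all genes were correlated with DCL1 in epiRILs and 56.6% in epiHybrids, and for DCL2 it was 49.9% and 56%. For RDR6 these shares were 45.9% and 51.3%, for AGO2 48.8% and 54.9%, for AGO1 40.6% and 45.4%, for HYL1 21.9% and 29.8%, and for SE 0.485% and 18.4%. All values of a pair come from the same libraries.

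On residuals from the length slope fewer pairs were correlated in epiRILs. Of the 10 pairs 1 passed, AGO1 with AGO2 (r = 0.533, adjusted p = 0.0163), while DCL1 with DCL2 had r = 0.514 (adjusted p = 0.0715) and DCL2 with RDR6 r = -0.361. AGO1 with SE (r = 0.577, adjusted p = 0.0182), RDR6 with SE (r = 0.539, adjusted p = 0.0357, r = 0.332 without 454 and 579, the lines farthest in RDR6) and DCL2 with HYL1 (r = -0.462, adjusted p = 0.0243) passed in addition. In epiHybrids 5 of the 10 pairs remained, among them AGO1 with AGO2 (r = 0.698, adjusted p = 0.000292) and RDR6 with AGO1 (r = 0.705, adjusted p = 0.00260). Without the 2 lines farthest in AGO1 (340 and 368) the former had r = 0.681 and the latter r = 0.345. HYL1 was then inversely related to AGO2 (r = -0.692, adjusted p = 0.000139), DCL1 (r = -0.591, adjusted p = 0.00217), DCL2 (r = -0.510, adjusted p = 0.0108) and AGO1 (r = -0.436, adjusted p = 0.0224, r = -0.669 without these 2 lines). SE with RDR6 had r = -0.501 (adjusted p = 0.0444) over all lines and r = 0.302 without 340 and 368, the lines farthest in either gene, so its sign rested on those libraries. AGO1 with AGO2 was the 1 pair of the 10 that passed in both groups on both scales. On residuals the share of all genes correlated with DCL1 was 0.872% in epiRILs and 33.3% in epiHybrids, with DCL2 27.8% and 29.6%, with RDR6 3.67% and 39.1% and with AGO2 37.4% and 50.8%. For AGO1 it was 10.3% and 41.6%, for HYL1 32.1% and 44.7%, and for SE 2.68% and 35.6%.

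**Figure D5:**
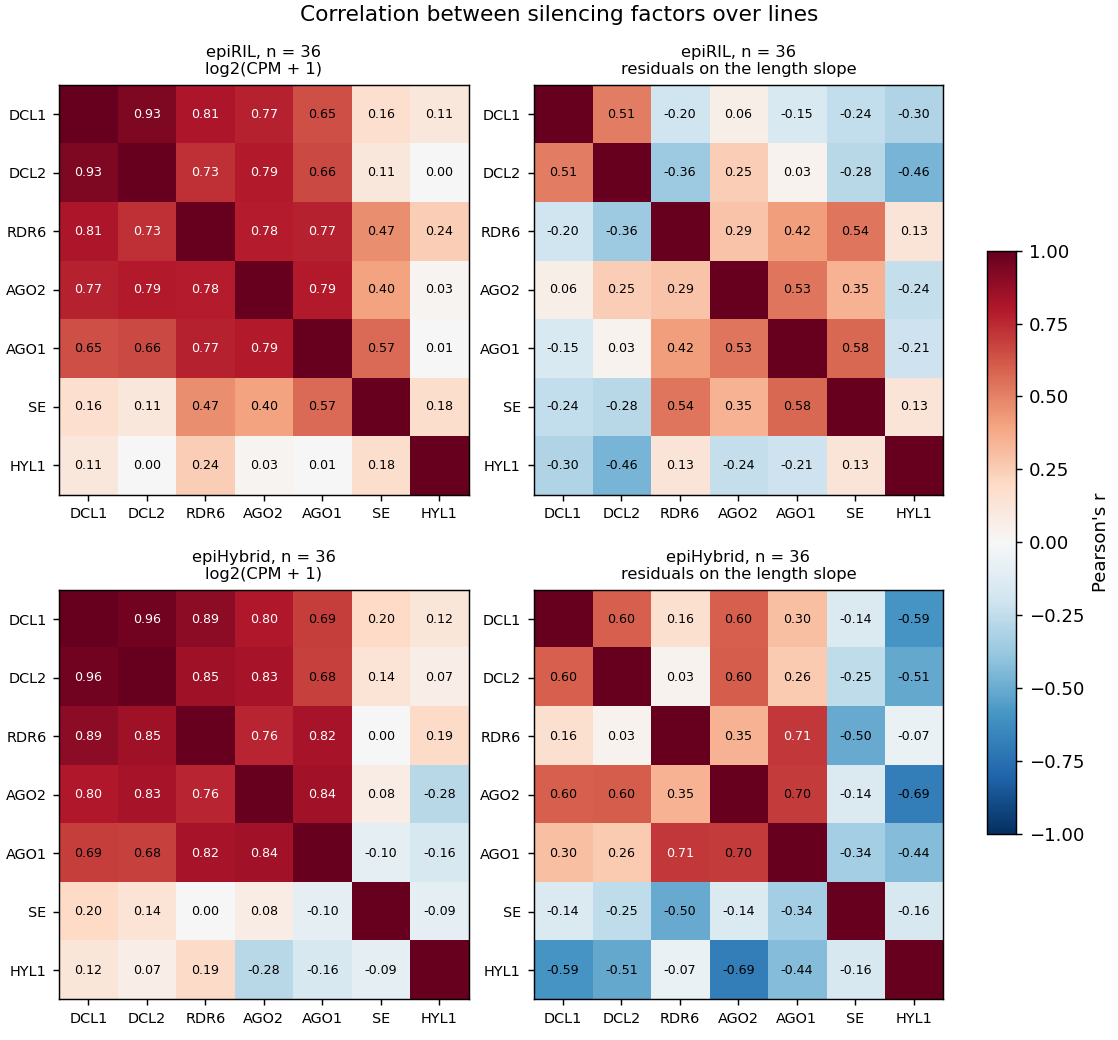
Pearson's r between the 7 genes over 36 epiRILs (top) and 36 epiHybrids (bottom), on log2(CPM + 1) (left) and on residuals from the length slope (right). The block of DCL1, DCL2, RDR6, AGO2 and AGO1 is positive throughout on the left, and in epiRILs it largely fades on the right, where DCL1 with RDR6 is -0.200.

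The genes whose pattern over the 36 epiRILs was most like that of DCL1 were G2484-1 (AT4G17330, r = 0.979), NRB4 (AT1G15780, a Mediator subunit, r = 0.978) and UPL1 (AT1G55860, a ubiquitin ligase, r = 0.977), with 6.691, 5.053 and 11.404 kb of exon. DCL2 came closest to HAC12 (AT1G16710, a histone acetyltransferase, r = 0.961), UPL4 (AT5G02880, r = 0.959) and XIK (AT5G20490, a myosin, r = 0.958), of 6.824, 5.200 and 5.615 kb. AGO2 came closest to SUO (AT3G48050, r = 0.942), a protein of miRNA-guided translational repression, and was also close to VPS15 (AT4G29380, r = 0.935), of 5.958 and 5.703 kb. All of these named partners were longer than 5 kb. RDR6 was most like RPN1A (AT2G20580, a proteasome subunit, r = 0.954), AT3G51120 (r = 0.954) and UBA1 (AT2G30110, a ubiquitin-activating enzyme, r = 0.952), of 3.091, 4.106 and 3.779 kb. AGO1 was most like YDA (AT1G63700, a MAPKK kinase, r = 0.931), AT1G10390 (r = 0.923) and AT3G06480 (r = 0.916), of 3.764, 3.875 and 3.900 kb. On residuals from the length slope the 3 highest partners in epiRILs changed in part. G2484-1 (r = 0.745), HAC12 (0.762), XIK (0.766), SUO (0.843) and VPS15 (0.831) stayed. RDR6 kept RPN1A (0.781) and UBA1 (0.791), and AGO1 kept YDA (0.857). The other partners named so far left the 3 highest of their genes.

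The pair of steady genes had other neighbours. HYL1 was most like NOP56 (AT1G56110, a core protein of snoRNA particles, r = 0.782), HSP60 (AT3G23990, a mitochondrial chaperonin, r = 0.758) and EIF3B-2 (AT5G25780, a translation initiation factor, r = 0.757), of 1.899, 2.275 and 2.473 kb. SE was most like AT5G51300 (r = 0.733), AT5G56890 (r = 0.732) and QKY (AT1G74720, r = 0.731), of 3.591, 4.176 and 3.905 kb, but without the 2 farthest lines these fell to 0.575, 0.553 and 0.606. Partners were taken for the size of r, which carries no statement on function. Of all partners named, only AT5G51300 was again among the 3 highest of its gene over epiHybrids on log2(CPM + 1). On residuals from the length slope none of the named partners of HYL1 and SE stayed among their 3 highest in epiRILs.

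The wider pathway was tested as lists, some of which include genes of the 7 themselves, so they are no separate evidence. Of 21 genes of miRNA biogenesis 0 were called in any of the 4 comparisons by edgeR and 0 by DESeq2, with 2 at an unadjusted p under 0.05 in each. Their median log2 fold change, which was the value of HYL1 itself, was -0.05 between epiRILs and msCol, against 0.02 over all genes. Of 9 tested Argonaute genes, 7 DCL and RDR genes and 6 RNA decay genes 0 were called in any comparison, with at most 2, 0 and 0 at an unadjusted p under 0.05 and 0 by DESeq2. The 7 DCL and RDR genes had a median log2 fold change of -0.33 between epiRILs and msCol, in which DCL1 and DCL2 take part. AGO3, the neighbour and close relative of AGO2, had 3.10 and 0.744 CPM in the msCol libraries and averaged 1.23 ± 0.375 CPM over epiRILs (SD, n = 36), a log2 difference of -0.64 ± 0.32 (adjusted p = 0.344).

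SGS3, which stabilises the templates of RDR6, was the 1 gene called among the 10 of trans-acting siRNA production and antiviral silencing. These 10 include RDR6. SGS3 was called between epiRILs and msCol and between epiHybrids and epiRILs, where 2.75% and 1.31% of all genes were. It had 15.3 CPM at the lowest, a median of 20.6 CPM and 36.8 CPM at the highest in epiRILs, and 12.7, 35.4 and 77.2 CPM in epiHybrids, against 51.5 and 55.0 CPM in msCol. All 36 epiRILs lay below both msCol libraries, and the epiHybrid exceeded its father in 33 of 36 families. Its log2 fold change was -1.30 ± 0.21 between epiRILs and msCol (edgeR, adjusted p = 1.65e-05) and 0.67 ± 0.08 between epiHybrids and epiRILs (adjusted p = 3.16e-07), and it was called in both by DESeq2 as well. Against msCol epiHybrids had -0.60 ± 0.23 (adjusted p = 0.166). How many of all genes had every epiRIL below both msCol libraries was not counted. SGS3 lies on chromosome 5 (7942908 to 7946147), 0.575 Mb from MS1, so the Ler segment of msCol and a change of expression for other reasons cannot be told apart. For RDR6, on chromosome 3, the log2 fold change between epiRILs and msCol was 0.13 (adjusted p = 0.855). TGH, a factor of miRNA processing that lies 0.375 Mb from MS1, had -0.11 ± 0.30 between epiRILs and msCol (adjusted p = 0.912), and DCL4, the Dicer-like enzyme of trans-acting siRNAs, had -0.17 ± 0.27 (adjusted p = 0.827).

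Among the 5 tested TAS precursors TAS1B was called higher in epiRILs than in msCol, where 2.75% of all genes were called. The epiRILs had 6.34 ± 0.734 CPM (SD over 36 lines), msCol 12 had 4.79 CPM and msCol 16 had 3.95 CPM, and 35 of 36 epiRILs exceeded both. How many of all genes had as many epiRILs above both msCol libraries was not counted. The log2 fold change was 0.54 ± 0.16 (edgeR, adjusted p = 0.0474), close to the threshold, and without msCol 12 or 16 the adjusted p was 0.160 or 0.649. TAS1A had 0.17, TAS1C 0.39, TAS2 0.28 and TAS3 -0.42, with adjusted p between 0.224 and 0.620. epiHybrids had 5.83 ± 0.983 CPM of TAS1B (SD over 36 lines), and no TAS precursor was called. TAS1B had r = -0.555 with the length slope in epiRILs (rho = -0.528, adjusted p of r 0.00194, permutation test, two-sided), and with the slope as a covariate its log2 fold change was 0.47 (adjusted p = 0.0163).

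Of 46 tested transcripts that miRNAs or trans-acting siRNAs target, 1 was called between epiRILs and msCol by edgeR, where 2.75% of all genes were, and 0 in the other comparisons. The edgeR count is no more than the share of all genes. By DESeq2 2 were called between epiRILs and msCol, beside 792 of all 19383 genes, and 0 elsewhere. At an unadjusted edgeR p under 0.05 there were 7 between epiRILs and msCol and 10 against the mid-parent, beside 2786 and 2313 of all genes. The other 2 comparisons had 6 each, beside 1922 (epiHybrids and epiRILs) and 2658 (epiHybrids and msCol). The gene called by edgeR was SULTR2;1, a sulfate transporter targeted by miR395. It had 189 ± 23.7 CPM over the 36 epiRILs (SD), 227 CPM in msCol 12 and 302 CPM in the library of msCol 16. Its log2 fold change was -0.49 ± 0.13 (adjusted p = 0.0205), and without msCol 16 it was -0.27 (adjusted p = 0.801). The meristem gene STM, held among the tissue markers, was lower in epiRILs than in msCol as well (-0.83 ± 0.24 on the log2 scale, edgeR, adjusted p = 0.0410). The msCol libraries had 19.5 (12) and 11.7 CPM (16) of STM, and when the former was left out the difference was -0.42 (adjusted p = 0.765). Of 6 genes of salicylic acid defence 0 were called in any comparison by edgeR, at an unadjusted p under 0.05 or by DESeq2.

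The loci of the miRNAs that act on these genes had few counts. MIR162A had 49 to 165 counts per library with a median of 97 and was the only 1 of 8 loci that passed the filter. Its log2 fold change was 0.04 ± 0.23 between epiRILs and msCol (adjusted p = 0.958) and -0.12 ± 0.07 between epiHybrids and epiRILs (adjusted p = 0.620). MIR168A had 1 to 31 counts, MIR838 0 to 34 and MIR403 0 to 10. MIR162B, MIR168B, MIR390A and MIR173 had at most 9, 5, 6 and 2 counts. Differences in these precursors were not detectable at this depth, and mature miRNAs were not analysed here.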

How the data were processed

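The authors deposited raw counts of reads per gene and library. Per the study's methods, reads were trimmed with Trim Galore, aligned to TAIR10 with TopHat2 and counted with featureCounts; versions and the use of strand are not given in the sources used here, so counts of overlapping genes are uncertain. Genes with 1 CPM in at least 2 libraries were kept and TMM-normalised, as in the study. Coordinates and exon lengths came from TAIR10.1, to which 32548 genes were matched. epiHybrids and epiRILs were compared with edgeR 4.0.16 (R 4.3.3) with family as a block, and the contrasts with msCol in 1 model over all 74 libraries. Alternatives used DESeq2 1.42.0, limma 3.58.1, other filters, a length slope covariate, and fits without families 340 and 368 or without an msCol library. Genes with an adjusted p under 0.05 (Benjamini-Hochberg over all genes) are called. Correlations used log2(CPM + 1) and 100000 shuffles (Python 3.11.15, numpy 2.4.6), adjusted over all genes. The edgeR test of epiHybrids against epiRILs and the permutation test of father and epiHybrid were checked on simulated data. Those simulated data held no family effect and no length slope. The contrasts with msCol, DESeq2 and limma were not checked in this way. Standard errors of log2 fold changes follow from the F statistic.

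The pairing comes from parentage, given by the line number in the labels. Deviations from group means correlated by 0.424 ± 0.277 (SD, n = 36) within families, above 0.1 in 30 of 36, and by -0.00922 between families. Without the block 165 genes were called between epiHybrids and epiRILs, against 254 with it, and none of the 7 genes in either. No label says which msCol line mothered which family. P-values measure the spread between lines.

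The 7 genes, the gene lists and the tests were chosen with earlier results of these data known. Genes named are the 7 genes, the loci of their miRNAs, AGO3, SGS3, DCL4, TGH, the TAS precursors, any list gene called in a comparison, and the 3 partners of highest absolute r in epiRILs; 1 of the partners of AGO2 is not reported here.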

Additional observations from a re-analysis of the deposited data

How the results depend on the processing

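None of the 7 genes was called in any of the 4 group comparisons under any alternative. The lowest adjusted p were those of DCL1 between epiRILs and msCol (0.0629) and of RDR6 between epiHybrids and epiRILs (0.0782), both with the length slope as a covariate. Sequencing depth was not varied, and every contrast with msCol rests on 2 msCol libraries. The causes of the changes below were not tested.

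The number of genes called between epiHybrids and epiRILs (254) was 399 with the slope covariate and 165 with no replicate block. Between epiRILs and msCol (533) it was 1093 with only these groups fitted, 1016 with the slope covariate, 896 without families 340 and 368, and 128 to 220 without 1 msCol library. Between epiHybrids and msCol (355) it was 178 with only these groups, 622 by DESeq2, 728 with the slope covariate, 732 without families 340 and 368, and 85 to 126 without 1 msCol library. Against the mid-parent (144) it was 393 by DESeq2, 344 with the slope covariate, 335 without families 340 and 368, and 45 to 72 without 1 msCol library. Genes correlated between father and epiHybrid (1361) numbered 2780 without families 340 and 368 and 3592 by the one-sided test, and of the 7 genes (0) it was 3 in each of these and 1 on slope residuals. Pairs of the 7 genes correlated in epiRILs (10 of 21) fell to 4 on slope residuals, and those in epiHybrids (10 of 21) were 11 without families 340 and 368 and 10 on slope residuals.

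Log2 fold changes near 0 changed sign. DCL1 between epiHybrids and epiRILs became 0.0030 with the slope covariate and 0.0041 with no replicate block. Without msCol 16 and without msCol 12 in turn, HYL1 had -0.19 and 0.11 between epiRILs and msCol, -0.17 and 0.13 between epiHybrids and msCol, and -0.078 and 0.075 against the mid-parent. SE had -0.20 and 0.018 between epiHybrids and msCol and -0.084 and 0.025 against the mid-parent. AGO2 had -0.035 and 0.082 between epiRILs and msCol, and RDR6 -0.0025 and 0.069 between epiHybrids and msCol. With the slope covariate, AGO2 became 0.036 between epiHybrids and msCol, and HYL1, DCL2 and RDR6 became 0.0074, 0.0013 and 0.047 against the mid-parent. With family as a correlated block in limma-voom, RDR6 became -0.0092 between epiHybrids and msCol and AGO1 -0.0029 against the mid-parent, and this block changed no call of the 7 genes. The r of SE between father and epiHybrid became -0.0383 on CPM without log and -0.0667 on slope residuals. On slope residuals in epiRILs r became -0.200 for DCL1 with RDR6, -0.150 for DCL1 with AGO1 and -0.361 for DCL2 with RDR6. The median divergence of RDR6 was 1.55% without families 340 and 368, and those of DCL1 and DCL2 were -12.4% each with a geometric mid-parent. TAS1B lost its call with 1 CPM required in 36 libraries, with no filter and in limma-voom (adjusted p = 0.0530, 0.0631 and 0.0509), and STM with no filter and with only both groups fitted (0.0514 and 0.0638).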

Other observations

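SQN (SQUINT, AT2G15790, TAIR10.1 chromosome 2, 6877774 to 6880898, minus strand), a cyclophilin that promotes the activity of AGO1, was the gene of the miRNA biogenesis list with the widest spread between lines. It falls outside the rule for named genes and was chosen after its values were seen. In 7 epiRILs (54, 79, 102, 158, 266, 340 and 389) its level was 87.6 to 289 CPM, and in the other 29 it was 11.5 to 18.0 CPM, with no line between. The epiHybrids of those 7 fathers had 49.8 to 128 CPM, and the epiHybrids of the other 29 had 11.9 to 20.1 CPM. msCol 12 and 16 had 15.5 and 17.4 CPM. The ratio of the epiHybrid to the arithmetic mid-parent was 0.326 to 1.22 in the 7 families (median 0.868) and 0.755 to 1.19 in the other 29 (median 0.951). The lines fall into separate clusters, so no correlation over families is given and no test was made.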
